A study of Mus musculus with 4 samples.

Results

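p53 and 9 genes that it activates were followed across 4 RNA-seq libraries of mouse heart cells given microRNA mimics. The 10 genes were chosen by symbol, by matching Trp53, Mdm2, Ccng1, Bax, Sesn1, Sesn2, Gadd45a, Btg2, Perp and Zmat3 to the symbol printed in each record of the files. All 10 were found, on 12 transcript records, among 27267 genes in all, and each averaged 1 CPM or more (CPM being read counts brought to a common library size). Cardiomyocytes of CD1 mice at postnatal day 1 were cultured and received the human microRNA mimic hsa-miR-590-3p, the human mimic hsa-miR-199a-3p, the worm mimic cel-miR-67 as a control, or a mock transfection. Mimics were used at 50 nM in a reverse transfection and RNA was taken after 72 h. Each condition was 1 library, so no difference has a replicate check and no p-value was computed.

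p53, encoded by Trp53 in the mouse, is a transcription factor held at a low level by the ubiquitin ligase Mdm2 and stabilised when DNA is damaged or a cell is stressed. It binds a pair of short sequence elements near its target genes and raises their transcription, among them Mdm2 itself, which closes a feedback loop. Other targets halt the cell cycle, trigger apoptosis, limit growth signalling or repair DNA, and in the heart p53 is known for its part in cardiomyocyte stress and cell death. Because p53 is regulated largely as a protein, the level of its RNA is not a measure of its activity.

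The element that p53 binds is built from 2 copies of a decamer, the p53 half-site consensus, which reads the same on both strands. Promoter windows of RefSeq genes (250 bases before to 50 after each transcript start, GRCm38.p6) were searched for it, and for a complete site of 2 half-sites with at most 13 bases between them, within which each half-site is also counted alone. Windows were found by symbol for 8 of the 10 genes, and Perp and Zmat3 had none in the table. A half-site was in 6 of their 9 windows and in 8.36% of all 32851 windows, and none of the 9 held a complete site, which 0.0731% of all windows did. Windows of 3 of the genes that hold a half-site (capitals) are shown. Of the 10 genes Ccng1 varied most in these libraries and Mdm2 least. Bax, like Ccng1, was higher in the control mimic than in mock. The last is a window of Cdkn1a, the gene of the cell-cycle inhibitor p21 and a p53 target outside the 10. It held a complete site with 12 bases between its half-sites, and the other window of Cdkn1a held no half-site. The search allowed no mismatch, so near matches to the consensus were not marked.
Ccng1, chr11:40755237-40755536, minus strand: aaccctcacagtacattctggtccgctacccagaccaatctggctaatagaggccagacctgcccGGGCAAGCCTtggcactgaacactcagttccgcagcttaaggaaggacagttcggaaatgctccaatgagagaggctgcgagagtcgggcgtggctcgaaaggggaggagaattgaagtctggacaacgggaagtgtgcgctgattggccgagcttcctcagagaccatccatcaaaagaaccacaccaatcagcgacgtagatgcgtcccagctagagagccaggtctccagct
Bax, chr7:45466849-45467148, minus strand: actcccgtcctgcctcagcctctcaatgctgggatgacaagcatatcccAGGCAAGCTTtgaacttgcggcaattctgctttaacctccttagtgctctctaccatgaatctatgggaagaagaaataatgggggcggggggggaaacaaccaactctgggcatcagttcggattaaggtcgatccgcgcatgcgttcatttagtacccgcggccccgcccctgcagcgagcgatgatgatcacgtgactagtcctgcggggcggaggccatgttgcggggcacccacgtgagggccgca
Mdm2, chr10:117710709-117711008, minus strand: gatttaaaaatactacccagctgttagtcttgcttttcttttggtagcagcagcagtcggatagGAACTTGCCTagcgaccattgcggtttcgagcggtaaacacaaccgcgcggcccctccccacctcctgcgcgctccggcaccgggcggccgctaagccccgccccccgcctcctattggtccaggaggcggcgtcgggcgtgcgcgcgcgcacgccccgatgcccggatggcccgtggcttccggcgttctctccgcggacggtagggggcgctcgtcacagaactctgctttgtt
Cdkn1a, chr17:29090729-29091028, plus strand: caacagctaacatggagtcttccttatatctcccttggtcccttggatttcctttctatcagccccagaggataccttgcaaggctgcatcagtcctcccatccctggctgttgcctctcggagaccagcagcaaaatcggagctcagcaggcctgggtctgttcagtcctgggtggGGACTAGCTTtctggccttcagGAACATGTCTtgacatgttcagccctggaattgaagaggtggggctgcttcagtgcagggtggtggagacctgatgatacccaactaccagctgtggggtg

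The match in Ccng1 began 185 bases before the start, that in Bax 201 and that in Mdm2 186, whereas in Trp53 and Gadd45a it began 75 and 40 bases before the start. Btg2, Sesn2 and the first of the 2 windows of Sesn1 held none. These are matches of letters in a fixed window, and p53 binding was not measured here.

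**Figure D1:**
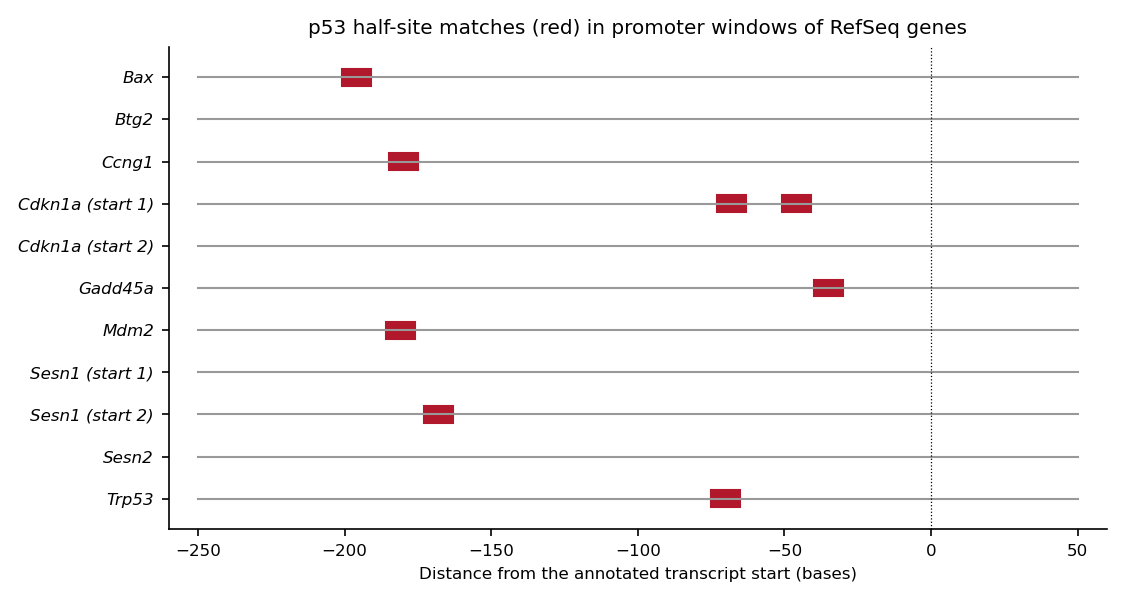
Positions of p53 half-site matches (red blocks) in the 300-base promoter windows of the 8 genes with a window and of Cdkn1a, against the distance in bases from the annotated transcript start (dotted line). The matches of Bax, Ccng1, Mdm2 and the second start of Sesn1 lie in the distal part of the window, those of Trp53, Gadd45a and Cdkn1a nearer to the start.

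The mimics act through their seed, bases 2 to 8 of the microRNA, which pairs with messenger RNAs. The RefSeq entry of the mouse microRNA of the same name as hsa-miR-199a-3p, at chr1:162217883-162217904 on the plus strand and again at chr9:21496498-21496519 on the minus strand of GRCm38.p6, is shown with its seed in capitals since hsa-miR-199a-3p is one of the mimics compared. For miR-590-3p and cel-miR-67 the RefSeq table used here gave no sequence, and they are named only.
mmu-miR-199a-3p: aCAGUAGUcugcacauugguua

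The libraries held 34452240 reads for hsa-miR-590-3p, 38745528 for hsa-miR-199a-3p, 34255689 for cel-miR-67 and 31638930 for mock, and 13502 genes passed 1 CPM. All 8 cardiomyocyte markers were present, with a summed level of 36200 CPM under hsa-miR-590-3p, 35000 under hsa-miR-199a-3p, 49100 under cel-miR-67 and 53700 in mock, and each of the 8 was lower under either microRNA than in either control. Fibroblast markers, also all 8 detected, summed to 9940 to 11700 CPM, smooth muscle and pericyte markers to 4480 to 6400, endothelial markers to 192 to 258 and leukocyte markers to 6.85 to 19.0. In cultures that hold several cell types fewer cells of a type and less RNA per cell cannot be told apart. Intervals below are 95% intervals that cover counting error only, since 1 library per condition shows no variation between replicates. PCR copies of 1 molecule could not be recognised, and such copies would make the intervals too narrow.

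Compared per kilobase of transcript, Ccng1 had the highest level of the 10 genes in both controls and Bax in both microRNA libraries. Ccng1 stood at 52.6 CPM per kilobase under hsa-miR-590-3p, 74.5 under hsa-miR-199a-3p, 150 under cel-miR-67 and 98.7 in mock, and Bax at 62.7, 78.1, 75.0 and 55.6 CPM per kilobase in the same libraries. The counting intervals of Bax and Ccng1 overlapped under hsa-miR-199a-3p. Perp stood at 48.7, 30.2, 58.5 and 69.0, above Bax in mock. Mdm2 lay between 29.8 and 34.6. The place of Trp53 is uncertain, because it is not known whether reads shared by its 2 records were counted in both: it stood at 31.97 to 39.83 from the summed reads and at 19.5 to 26.4 from the record with most reads alone. Btg2 stood at 13.7 to 28.5 CPM per kilobase, and Sesn2, Gadd45a and Zmat3 at 8.17 to 15.7. Sesn1, which also has 2 records, stood at 7.86 to 11.7 from the summed reads and at 6.46 to 10.2 from the record with most reads alone.

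**Figure D2:**
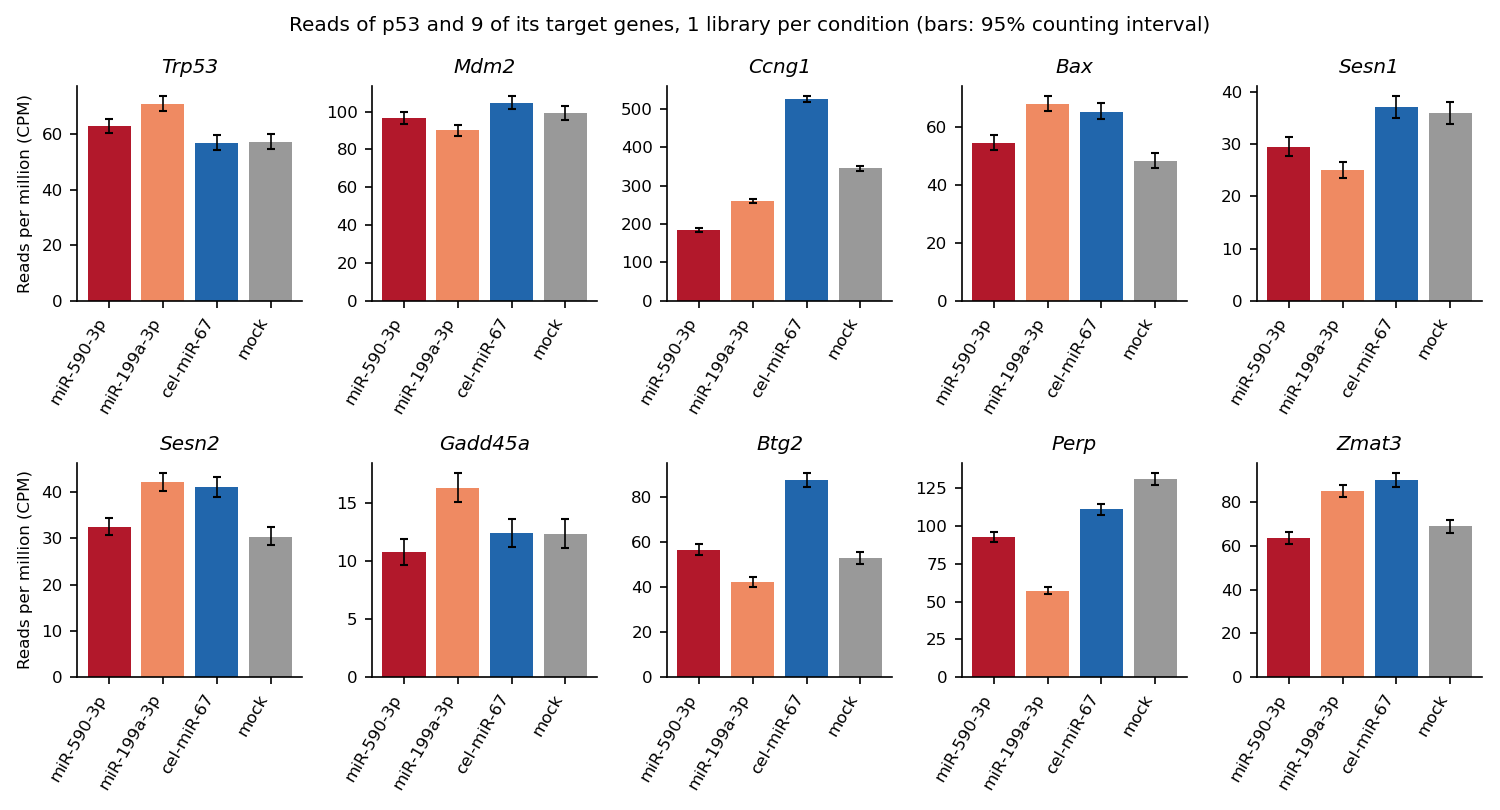
Levels (CPM) of the 10 genes in the hsa-miR-590-3p, hsa-miR-199a-3p, cel-miR-67 and mock libraries, 1 library each, with bars for the 95% counting interval. Ccng1 and Btg2 stand highest under cel-miR-67, Perp is highest in mock, and Mdm2 differs little between libraries.

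The RNA of p53 itself was somewhat more abundant in the microRNA libraries. Trp53 had 62.9 CPM under hsa-miR-590-3p, 70.9 under hsa-miR-199a-3p, 56.9 under cel-miR-67 and 57.3 in mock, so that both microRNA libraries lay above the controls, which were nearly equal. Its ratio under hsa-miR-199a-3p was 1.25 against cel-miR-67 (interval 1.18 to 1.32) and 1.24 against mock (1.17 to 1.32), and under hsa-miR-590-3p it was 1.10 against each control. Trp53 has 2 records, and between 2.94% and 3.79% of its reads were placed uniquely. If reads shared by the 2 records were counted in both, the intervals above would be too narrow. The 78, 84, 65 and 66 unique reads under hsa-miR-590-3p, hsa-miR-199a-3p, cel-miR-67 and mock gave a ratio of 0.975 for hsa-miR-199a-3p against mock, with an interval of 0.697 to 1.37, so the difference was not detectable in unique reads at this depth.

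Mdm2, the ligase that marks p53 for degradation and a direct p53 target, was the steadiest of the 10 genes. It had 96.4 CPM under hsa-miR-590-3p, 90.1 under hsa-miR-199a-3p, 105 under cel-miR-67 and 99.2 in mock. Its highest and lowest libraries were 1.16-fold apart, and 86.9% of the 13502 genes had a wider range. The hsa-miR-199a-3p library was the lowest, with log2 ratios of -0.21 against cel-miR-67 and -0.14 against mock, and the hsa-miR-590-3p library stood at -0.12 and -0.04. Scaling by total counts alone turned the last value to 0.05.

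Ccng1, cyclin G1, which brings a phosphatase to Mdm2 and so feeds back on p53, differed most between libraries. It had 6511 reads under hsa-miR-590-3p, 10503 under hsa-miR-199a-3p, 17564 under cel-miR-67 and 10500 in mock, which are 184, 261, 525 and 346 CPM, all of them placed uniquely. Both microRNA libraries lay below both controls, and the controls themselves differed by a ratio of 1.52 (interval 1.48 to 1.56), cel-miR-67 over mock. The log2 ratio under hsa-miR-590-3p was -1.51 against cel-miR-67 (interval of the ratio 0.341 to 0.361) and -0.91 against mock (0.517 to 0.550). Among 13502 genes the first value was number 18 from the lowest and the second number 125. Under hsa-miR-199a-3p it stood at -1.01 and -0.41, number 480 and number 2721 from the lowest. Ccng1 was past 2-fold against cel-miR-67 under both mimics and against mock under neither. With total-count scaling the hsa-miR-199a-3p value against cel-miR-67 was -0.92, short of 2-fold.

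Btg2, an antiproliferative factor that recruits the deadenylation machinery to messenger RNAs, was also highest under cel-miR-67. Levels were 56.8 CPM under hsa-miR-590-3p, 42.3 under hsa-miR-199a-3p, 87.8 under cel-miR-67 and 53.1 in mock. Under hsa-miR-590-3p the gene stood between the controls, at log2 ratios of -0.63 against cel-miR-67 and 0.10 against mock. Under hsa-miR-199a-3p it lay below both, at -1.05 and -0.33, and the first value was -0.96 with total-count scaling, short of 2-fold. The ratio of cel-miR-67 to mock was 1.65 (interval 1.56 to 1.76), the largest of the 10, with 1.70% of all genes showing a higher one.

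Bax, which forms pores in the outer mitochondrial membrane during apoptosis, Sesn2, a sestrin that senses leucine and restrains mTORC1, and Zmat3, an RNA-binding zinc finger protein, shared a split of the libraries, with hsa-miR-199a-3p and cel-miR-67 high and hsa-miR-590-3p and mock low. Bax had 54.5 CPM under hsa-miR-590-3p, 67.9 under hsa-miR-199a-3p, 65.2 under cel-miR-67 and 48.3 in mock. Sesn2 had 32.5, 42.1, 41.1 and 30.4 CPM in those libraries, and Zmat3 had 63.6, 85.1, 90.2 and 69.0 CPM. All 3 were higher under cel-miR-67 than in mock, with ratios of 1.35 for Bax, 1.35 for Sesn2 and 1.31 for Zmat3. Against cel-miR-67 the hsa-miR-590-3p library stood at log2 ratios of -0.26, -0.34 and -0.50 for Bax, Sesn2 and Zmat3, and against mock at 0.17, 0.10 and -0.12. The hsa-miR-199a-3p library was within 0.08 of cel-miR-67 on the log2 scale for all 3 and stood at 0.49, 0.47 and 0.30 against mock.

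Sesn1, the sestrin most closely tied to p53, differed from Sesn2. It had 29.5 CPM under hsa-miR-590-3p, 25.0 under hsa-miR-199a-3p, 37.1 under cel-miR-67 and 35.9 in mock, with both microRNA libraries below both controls and the controls close together. Its log2 ratios were -0.33 and -0.28 under hsa-miR-590-3p and -0.57 and -0.52 under hsa-miR-199a-3p, against cel-miR-67 and then mock. Unique reads, 10.8% to 14.0% of the total over its 2 records, gave -0.86 and -0.74 for hsa-miR-199a-3p. For hsa-miR-590-3p they gave -0.25 (interval -0.58 to 0.08) and -0.13 (-0.48 to 0.21), so that difference was not detectable in unique reads at this depth.

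Gadd45a, a small stress protein that binds PCNA and activates stress kinases, was the least abundant in reads. It had 379 reads under hsa-miR-590-3p, 655 under hsa-miR-199a-3p, 413 under cel-miR-67 and 374 in mock, or 10.7, 16.3, 12.4 and 12.3 CPM. The hsa-miR-199a-3p library was the highest, at a ratio of 1.32 against each control, with intervals of 1.16 to 1.49 against cel-miR-67 and 1.16 to 1.50 against mock. Under hsa-miR-590-3p the ratio against mock was 0.871, with an interval of 0.753 to 1.01 that includes 1.

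Perp, a membrane protein of desmosomes and an effector of p53-dependent apoptosis, was lowest under hsa-miR-199a-3p. It had 92.5 CPM under hsa-miR-590-3p, 57.3 under hsa-miR-199a-3p, 111 under cel-miR-67 and 131 in mock, and both microRNA libraries lay below both controls. The log2 ratios were -0.26 against cel-miR-67 and -0.50 against mock under hsa-miR-590-3p, and -0.95 and -1.19 under hsa-miR-199a-3p, past 2-fold against mock alone. Alone among the 10 genes, Perp was lower under cel-miR-67 than in mock with an interval below 1 (ratio 0.847, 0.810 to 0.886). Perp is also expressed in epithelial cells, and the 10 epicardial and epithelial markers, of which 8 passed 1 CPM, summed to 368 CPM under hsa-miR-590-3p, 312 under hsa-miR-199a-3p, 263 under cel-miR-67 and 420 in mock. Of those 8, none lay above and 2 below both controls under hsa-miR-199a-3p, and 3 above and none below under hsa-miR-590-3p, while Cdh1 and Epcam were under 0.14 CPM throughout. The 2 below, named after their values were seen, were Lrrn4 and Wt1. Lrrn4 had 73.9 CPM under hsa-miR-590-3p, 31.1 under hsa-miR-199a-3p, 57.2 under cel-miR-67 and 68.7 in mock. Wt1 had 23.5, 15.5, 16.3 and 20.6 CPM. Both were lowest under hsa-miR-199a-3p, as Perp was, whereas the order of the sum differed from that of Perp. The part of these cells in the values of Perp was not tested. The cardiomyocyte markers given above were lower in both microRNA libraries, as Perp, Ccng1 and Sesn1 were, and their part in these differences was not tested.

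**Figure D3:**
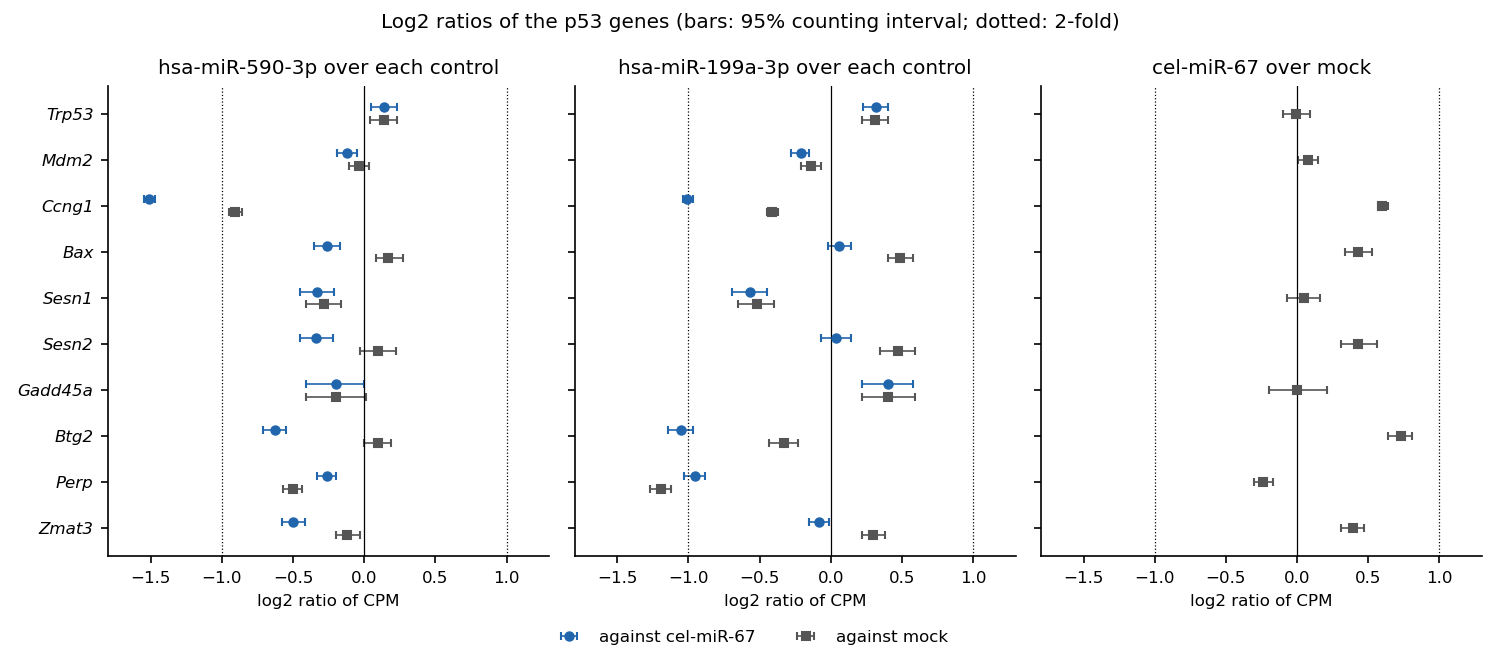
Log2 ratios of CPM for the 10 genes, the mimics hsa-miR-590-3p (left) and hsa-miR-199a-3p (middle) against cel-miR-67 (circles) and against mock (squares), and cel-miR-67 against mock, with 95% counting intervals and dotted lines at 2-fold. Under hsa-miR-590-3p Ccng1 lies at -1.51 and -0.91, and 5 of the 10 genes lie at 0.39 or above in cel-miR-67 over mock.

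As a group, none of the 10 genes was at least 2-fold away from both controls in the same direction. Under hsa-miR-590-3p 0.356% of all genes were 2-fold higher and 0.230% lower than both, and under hsa-miR-199a-3p the shares were 2.40% and 2.34%. Under hsa-miR-590-3p, 6 of the 10 genes lay below both controls and 1, Trp53, above both, against 36.6% and 35.6% of all genes. One of the 6, Mdm2, passed above mock with total-count scaling. Among the 6, the intervals of the ratio against mock include 1 for Mdm2 (0.925 to 1.02) and Gadd45a (0.753 to 1.01). Under hsa-miR-199a-3p, 5 lay below and 4 above both controls, against 41.9% and 40.2%. Among the 4, the intervals of the ratio against cel-miR-67 include 1 for Bax (0.984 to 1.10) and Sesn2 (0.955 to 1.10). Zmat3 would join those above with total-count scaling, at a log2 ratio of 0.01 over cel-miR-67, and Trp53 would leave them with unique reads, at -0.04 over mock.

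These counts differed with the control. Against cel-miR-67, hsa-miR-590-3p had 9 of the 10 genes lower and 1 higher, where 50.1% and 49.9% of all genes were. Against mock, 6 were lower and 4 higher, where 50.9% and 49.1% were. Under hsa-miR-199a-3p, 6 were lower and 4 higher than in cel-miR-67 (50.5% and 49.5% of all genes), and 5 lower and 5 higher than in mock (51.2% and 48.8%). The median log2 ratio of the 10 genes was -0.30 against cel-miR-67 and -0.08 against mock under hsa-miR-590-3p, and -0.15 and 0.08 under hsa-miR-199a-3p, where all genes had medians within 0.01 of 0. At a ratio of at least 1.25 either way, a limit chosen after the values were seen, hsa-miR-590-3p had 5 of the genes lower and none higher against cel-miR-67 (11.7% and 15.8% of all genes), and 2 lower and none higher against mock (11.1% and 13.2%). The corresponding counts for hsa-miR-199a-3p were 4 lower and 1 higher against cel-miR-67 (24.1% and 22.2%), and 4 lower and 3 higher against mock (25.1% and 21.3%). These comparisons share their controls, so a high level in cel-miR-67 enters both ratios against it.

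The 2 controls differed from each other in these genes. Compared with mock, 8 of the 10 were higher under cel-miR-67, and 2 lower, against 50.3% and 49.7% of all genes, with a median log2 ratio of 0.23. None was 2-fold different, where 0.652% of all genes were higher and 1.33% lower. At the same limit of 1.25, 5 genes were higher (Btg2, Ccng1, Bax, Sesn2 and Zmat3) and none lower, against 9.38% and 11.0% of all genes. Trp53 stood at -0.01 and Mdm2 at 0.08 in the same comparison. Each control is 1 library, so an effect of the mimic and a difference between 2 dishes or library preparations cannot be told apart.

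Set directly against hsa-miR-199a-3p, the hsa-miR-590-3p library had lower levels of Gadd45a (log2 ratio -0.60), Ccng1 (-0.50), Zmat3 (-0.42), Sesn2 (-0.37) and Bax (-0.32), and higher levels of Perp (0.69), Btg2 (0.42) and Sesn1 (0.24). Mdm2 stood at 0.10 and Trp53 at -0.17, the value of Trp53 turning to 0.08 with unique reads. For Sesn1 unique reads gave a log2 ratio of 0.61 (ratio 1.53, interval 1.18 to 1.98), past the limit of 1.25. In all, 4 genes were higher and 6 lower, against 50.4% and 49.6% of all genes. None was past 2-fold, where 2.71% of all genes were higher and 1.87% lower. At 1.25-fold, 2 were higher and 4 lower, against 22.9% and 18.6% of all genes.

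Other p53 targets, listed from general knowledge of the pathway, numbered 44, of which 40 passed 1 CPM. Under hsa-miR-590-3p 17 of them lay above and 17 below both controls, and none was past 2-fold against both, while under hsa-miR-199a-3p 19 lay above and 11 below, and 1 was past 2-fold. Among all genes 35.6% lay above and 36.6% below both controls under hsa-miR-590-3p, 40.2% and 41.9% under hsa-miR-199a-3p, and 2.40% were 2-fold higher under hsa-miR-199a-3p. The gene past 2-fold was Ckap2, a spindle protein, with 34.7 CPM under hsa-miR-590-3p, 48.9 under hsa-miR-199a-3p, 17.8 under cel-miR-67 and 19.6 in mock. Its log2 ratios under hsa-miR-199a-3p were 1.46 against cel-miR-67 and 1.32 against mock. Cdkn1a, the most abundant growth-arrest target, had 124, 165, 233 and 179 CPM in the same libraries, the same order of libraries as Ccng1. Its log2 ratios were -0.91 and -0.53 under hsa-miR-590-3p and -0.50 and -0.11 under hsa-miR-199a-3p, against cel-miR-67 and then mock, and 6.34% of its reads were placed uniquely. With unique reads alone the value of -0.11 became 0.14.

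Among 13 measured apoptosis targets the median log2 ratio was 0.29 against cel-miR-67 and 0.30 against mock under hsa-miR-199a-3p, and -0.04 and -0.03 under hsa-miR-590-3p. Ei24, a membrane protein of the endoplasmic reticulum and the most abundant of them, had 106 CPM under hsa-miR-590-3p, 144 under hsa-miR-199a-3p, 117 under cel-miR-67 and 117 in mock, with 2.72% of reads unique. Its log2 ratio under hsa-miR-590-3p was -0.15 against cel-miR-67 and -0.14 against mock, and unique reads turned these to 0.14 and 0.48. The 16 targets of DNA repair and metabolism had medians within 0.05 of 0 in every comparison with a control, and their most abundant member, the adenylate kinase Ak1, stood at log2 ratios of -0.32 and -0.52 under hsa-miR-199a-3p with 2.42% of reads unique. In cel-miR-67 over mock, 29 of the 40 targets were higher, against the 50.3% of all genes given above, and 8 were at least 1.25-fold higher and 2 lower, against 9.38% and 11.0% of all genes. The 8 were Pidd1, Ddb2, Dcxr, Gtse1, Fas, Bbc3, Ccng2 and Cdkn1a, and the 2 were Rrm2b and Tigar, all but Cdkn1a named after their values were seen. Of the reads of Gtse1, 1.2% were placed uniquely. Counts were low for Ddb2 (104 reads under cel-miR-67 and 66 in mock) and Dcxr (124 and 80).

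Of 22 regulators of p53, 11 lay above and 8 below both controls under hsa-miR-590-3p, and 7 above and 12 below under hsa-miR-199a-3p, where the shares of all genes were 35.6% and 36.6%, and 40.2% and 41.9%. One was past 2-fold against both controls, Atr, the kinase that senses replication stress, under hsa-miR-199a-3p, where 2.34% of all genes were 2-fold lower. Atr had 1043 reads under hsa-miR-590-3p, 407 under hsa-miR-199a-3p, 951 under cel-miR-67 and 1026 in mock, with ratios for hsa-miR-199a-3p of 0.356 (interval 0.316 to 0.400) and 0.300 (0.266 to 0.336). Mdm4, the partner of Mdm2 in restraining p53, had 34.9, 20.5, 30.0 and 30.8 CPM in the same libraries. Ppm1d, the phosphatase Wip1 that switches off p53 signalling, had 14.7, 24.0, 22.7 and 19.3 CPM. Both were singled out after their values were seen. Rpl11, a ribosomal protein that binds Mdm2 and the most abundant of the list, had 232, 342, 257 and 306 CPM and is uncertain, with 0.306% of reads unique.

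Active p53 lowers cell-cycle genes through p21 and the DREAM repressor complex, and 16 such genes were also listed. All 16 lay above both controls under both mimics, against 35.6% and 40.2% of all genes. Past 2-fold against both were 7 under hsa-miR-199a-3p, where 2.40% of all genes were 2-fold higher. None was under hsa-miR-590-3p, where 0.356% of all genes were. The median log2 ratios were 0.66 and 0.85 under hsa-miR-590-3p and 0.99 and 1.21 under hsa-miR-199a-3p. Bub1b, a spindle checkpoint kinase, had 62.5 CPM under hsa-miR-590-3p, 93.5 under hsa-miR-199a-3p, 33.5 under cel-miR-67 and 28.4 in mock. Ccna2, cyclin A2 and the most abundant of the list, had 126, 165, 68.9 and 59.7 CPM. Against mock, cel-miR-67 had 15 of the 16 genes higher, all but Ccnb1, where 50.3% of all genes were, with a median of 0.21. Most of these differences were small. At the limit of 1.25, 1 gene was higher (Plk1) and 1 lower (Ccnb1), against 9.38% and 11.0% of all genes. Ccnb1 was 2-fold lower, with 23.1 CPM under cel-miR-67 and 46.3 in mock, and 28.4% of its reads were placed uniquely. Plk1 and Ccnb1 were named after their values were seen. Ccng1, Btg2 and Cdkn1a were highest in the cel-miR-67 library. The cardiomyocyte markers were lower in both microRNA libraries, and their part in these values was not tested. Birc5 (37.5, 58.6, 22.6 and 19.9 CPM) and Aurka (35.5, 60.5, 24.3 and 19.6 CPM) were also past 2-fold under hsa-miR-199a-3p. Of the reads of Birc5, 16.9% were placed uniquely.

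**Figure D4:**
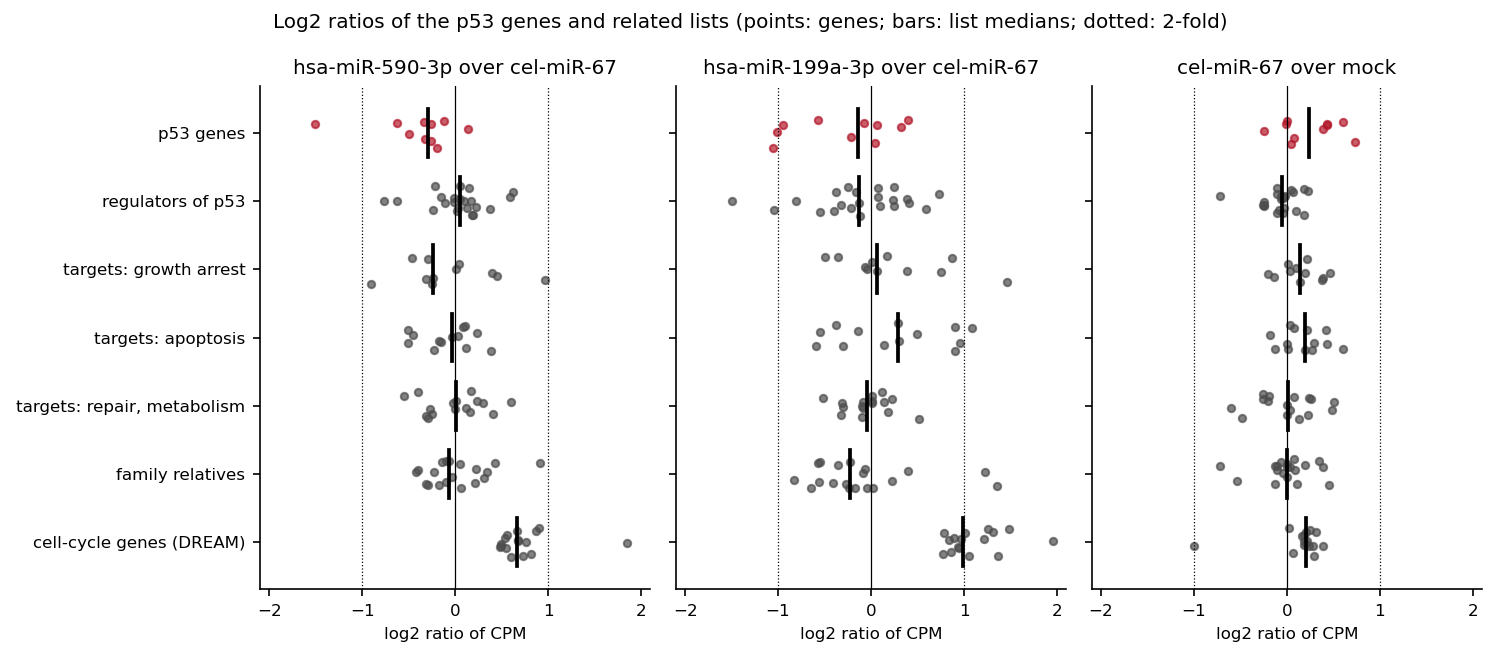
Log2 ratios of CPM of the 10 p53 genes (red) and of the genes of 6 related lists (grey) for hsa-miR-590-3p over cel-miR-67, hsa-miR-199a-3p over cel-miR-67 and cel-miR-67 over mock, with a black bar at each list's median and dotted lines at 2-fold. The cell-cycle list sits at medians of 0.66 and 0.99 under the mimics, whereas the p53 genes sit at -0.30 and -0.15.

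The genes whose profile over the 4 libraries was nearest to that of Ccng1, by Euclidean distance of centred log2 CPM among 11085 genes averaging 5 CPM or more, were Gnptg (0.33), Serpina3i (0.35), Popdc3 (0.36), Serpina3h (0.36) and Ddc (0.37). Popdc3, a membrane protein of striated muscle, had 32.6 CPM under hsa-miR-590-3p, 34.6 under hsa-miR-199a-3p, 67.5 under cel-miR-67 and 50.7 in mock. None of the 5 is on the lists of p53 targets used here. Likeness over 4 libraries is a weak measure, and Gnptg, Serpina3i and Ddc had at most 4.15% of their reads placed uniquely.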

How the data were processed

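The 4 deposited tables, 1 per library, were used. Per the file headers each gives, for 36065 RefSeq transcript records, the authors' count of total reads, their count of uniquely placed reads, the record's length and an RPKM, which matched total reads over length and summed reads, within rounding, in all 144260 values. CASAVA 1.8 and mm8 are named, with no role, in the submitters' processing notes, and no source used here gives the aligner. How the authors' count treats reads shared between records is not stated, so summed reads of genes with several records may be uncertain.

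Total reads were summed per gene, with symbols by accession for 77.4% of records and otherwise from the files. TMM factors came from edgeR 4.0.16 under R 4.3.3, for scaling only, since 1 library per condition leaves 0 residual degrees of freedom. Log2 ratios used a prior count of 0.5 and genes averaging 1 CPM or more. A gene was past 2-fold under a microRNA when it was at least 2-fold from cel-miR-67 and from mock in the same direction. Intervals are exact: conditional binomial (Clopper-Pearson) for ratios and Poisson for levels. Promoter and microRNA coordinates are those of RefSeq on GRCm38.p6. Python 3.11.15 and scipy 1.17.1 were used, and the scaling and intervals were tested on simulated data. The simulated counts held counting error only, so that test does not cover variation between replicate libraries. Named genes were the 10 genes, list members past 2-fold (up to 3 per list, direction and microRNA, with at least 50 reads) and the most abundant member of each list, apart from those said to be chosen later. Members and lists were chosen with earlier results of these data known.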

Additional observations from a re-analysis of the deposited data

How the results depend on the processing

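All values rest on single libraries. The levels per kilobase from the record with most reads alone were added after seeing the data. No paired analysis was possible because each condition has 1 library. Of 500 recomputed log2 ratios of the 10 genes under 9 alternatives, 68 fell outside their counting interval, and the largest move was 0.37. With total-count scaling, 7 of the 10 genes did so under hsa-miR-199a-3p against each control. Under hsa-miR-590-3p, 3 did so against cel-miR-67 and 5 against mock. In cel-miR-67 over mock and in hsa-miR-590-3p over hsa-miR-199a-3p, 0 did so. Of the 500 ratios, 10 changed sign, for Trp53, Mdm2 and Zmat3, and each of these had a value within 0.31 of 0 as first given. Scaling by total counts alone moved the median of all genes to 0.10 for hsa-miR-199a-3p over mock and to 0.09 for hsa-miR-590-3p over mock. With the mean of both controls as 1 control, 1 of the 10 genes was 2-fold lower under hsa-miR-590-3p (Ccng1) and 1 under hsa-miR-199a-3p (Perp). None was when a gene had to be 2-fold lower than both controls at once. Under the other 8 alternatives these counts were unchanged.

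The counts over all genes depended on the filter. Without a filter on low counts, 886 genes under hsa-miR-590-3p were 2-fold higher and 653 lower, 1631 and 1023 under hsa-miR-199a-3p, 1739 and 1626 for cel-miR-67 over mock, and 1834 and 2305 for hsa-miR-590-3p over hsa-miR-199a-3p. Requiring an average of 5 CPM, hsa-miR-590-3p had 18 higher and 13 lower, 167 higher under hsa-miR-199a-3p, 41 higher and 87 lower for cel-miR-67 over mock, and 105 lower for hsa-miR-590-3p over hsa-miR-199a-3p. With the mean of both controls, hsa-miR-590-3p had 89 higher and 68 lower. With the record with most reads alone, 145 were higher for cel-miR-67 over mock.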

Other observations

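Family relatives of the 10 genes, 20 in all and 19 above 1 CPM, were measured beside them. Under hsa-miR-590-3p 6 of the 19 lay above and 8 below both controls, and under hsa-miR-199a-3p 5 lay above and 12 below, with none past 2-fold against both. Among all genes 35.6% lay above and 36.6% below both controls under hsa-miR-590-3p, and 40.2% and 41.9% under hsa-miR-199a-3p. The shares 2-fold higher and lower than both were 0.356% and 0.230% under hsa-miR-590-3p, and 2.40% and 2.34% under hsa-miR-199a-3p. Sesn3, the sestrin controlled mainly by FOXO factors, had 24.8 CPM under hsa-miR-590-3p, 13.7 under hsa-miR-199a-3p, 21.5 under cel-miR-67 and 21.1 in mock. Tmem47, a relative of Perp, had 34.2, 18.5, 32.9 and 32.8 CPM, so it shared with Perp the lowest level under hsa-miR-199a-3p but not the difference between the controls. Bak1, which forms mitochondrial pores as Bax does, had 73.8, 47.9, 71.2 and 73.9 CPM, lowest in the library in which Bax was highest. Bax in that library was close to cel-miR-67, at a ratio of 1.04 with an interval of 0.984 to 1.10 that includes 1. Sesn3, Tmem47 and Bak1 were singled out after their values were seen. Mcl1, an inhibitor of apoptosis and the most abundant relative, had 199 CPM under hsa-miR-590-3p, 198 under hsa-miR-199a-3p, 224 under cel-miR-67 and 242 in mock. In the p53 family itself, Trp73 was at or under 0.124 CPM in every library and Trp63 at or under 1.64 CPM, and 0% of their reads were placed uniquely.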
